A study of Macaca mulatta with 20 samples.

Results

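The genes described here are 9 chemokine receptors of blood leukocytes, CXCR1, CXCR2, CXCR3, CXCR4, CCR1, CCR2, CCR6, CCR7 and CX3CR1, taken by name from the gene symbols of the array. The array holds 11 probes for them among 34127, and 10 of the 11 probes, from 8 of the 9 genes, were well above background on at least 5 of the 20 arrays, as were 19961 probes in all. Gene expression was measured in whole blood of male rhesus macaques of Chinese origin that received 10 Gy of X-rays to the whole thorax and no mitigator. Blood taken before irradiation was compared with blood taken 2, 5 and 30 days after it, with 5 arrays in each of the 4 groups, called replicates 1 to 5. All animals were irradiated, so the pre-irradiation arrays are the only controls, and no age is given for the animals of single arrays. The study's methods match the arrays of an animal across days, except for 1 sample in which RNA of different animals was pooled, which no label marks.

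Chemokine receptors are G protein-coupled receptors of the cell surface that steer leukocytes along gradients of small secreted proteins, the chemokines. Binding of a chemokine frees inhibitory G protein subunits, which drive calcium release, integrin activation and movement, after which kinases and arrestins silence the receptor. CXCR1 and CXCR2 bind CXCL8 and related chemokines and draw neutrophils out of the marrow and into inflamed tissue, while CXCR4, the receptor of CXCL12, holds them and other blood cells in the marrow. CCR2 brings classical monocytes into tissue, CX3CR1 marks patrolling monocytes and cytotoxic NK and T cells, and CCR1 is carried by monocytes and neutrophils. CXCR3 marks effector T and NK cells, CCR7 guides naive and central memory T cells to lymph nodes, and CCR6 is found on B cells and on T cells of the Th17 type. Which cells are in a blood sample therefore bears on all of these transcripts, and in whole blood fewer cells of a type and less RNA per cell cannot be told apart.

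Every level below is the log2 processed signal of a probe minus the 75th percentile of its array, so that a level of 0 equals that percentile, and levels of different probes were not set against each other. Replicate 3 of day 5 had the highest share of spots well above background, 67.3%, and the lowest 75th percentile, while the share ranged from 50.9% to 58.8% on the other 19 arrays. The arrays lay on 5 slides, each with 1 array of every group, and each group had the same place on every slide, so that the place on the slide and the group cannot be told apart. The probes are human sequences, which the array annotation places on the genome build hg19, and how well each matches the macaque transcript was not tested. Transcripts of whole blood were present as labelled, with all 8 erythroid markers measured and at a median summed level of 1713 to 2543 times the 75th percentile in the 4 groups, along with the leukocyte markers given below. All 10 probes that passed were well above background on 20 of 20 arrays, so the minimum of 5 arrays decided nothing among the receptors.

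The probes of CXCR1 and CXCR2 are shown because the results turn on these neighbouring genes and a shared stretch could let a probe bind both transcripts. The CXCR1 probe lies at chr2:219027845-219027904, minus strand, and the CXCR2 probe at chr2:219001875-219001934, plus strand, both on hg19, and the array annotation does not say in which exon or UTR they lie. The longest run of bases that both 60-base probes hold was 8 bases long. Runs of 8 bases were also shared by the CXCR2 probe with a probe each of CXCR3, CXCR4 and CCR2. The probes were compared with each other and not with the other gene's transcript, so binding to both transcripts was not tested. CXCR3 and CCR2 have 2 probes each, for different transcripts of the gene, and these are shown because the probes of a gene did not always have the same sign, the main probe being the one with the higher mean level. The CXCR3 probes lie at chrX:70835807-70835866, minus strand, and chrX:70836857-70836916, minus strand, and those of CCR2 at chr3:46401916-46401975, plus strand, and chr3:46400706-46400765, plus strand. The first 30 bases of each are given 5′ to 3′ as the array lists them, with the run shared by CXCR1 and CXCR2 in capitals.
CXCR1: cctGCTAGAACagtctcttgaggcacagaa
CXCR2: ggctgattaaaccaagGCTAGAACcacctg
CXCR3, main probe: gtgactgtggccatggtccccaagacctct
CXCR3, other probe: tacgcaggagccctcctgctggcctgcatc
CCR2, main probe: atgaagtcatgcgtttaatcacattcgagt
CCR2, other probe: cttttgcataagtgcatgacatatttttgc

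The neutrophil receptors CXCR1 and CXCR2 had the highest mean changes of the 8 measured receptors on each day against pre-irradiation, about 1 on the log2 scale at days 2 and 30. The threshold was the study's, a p-value under 0.005 with a false discovery rate (FDR) under 10%. It was applied here in limma, with a block for each replicate number, and none of the 8 genes passed at day 2, day 5 or day 30. The study applied it in another test, the paired class comparison of BRB Array Tools. On each day it reported more genes than limma called here. Over all 19961 probes limma called 0.0601% at day 2, 0% at day 5 and 0% at day 30, so the count of 0 among the 8 genes is no less than the background gives. At an unadjusted p under 0.05, 2 of the 8 were higher at each day, CXCR1 and CXCR2 every time, and 0 were lower. The same limit took 8.47%, 7.35% and 7.43% of all probes as higher and 6.55%, 3.82% and 10.1% as lower at days 2, 5 and 30. The median change of the 8 receptors was -0.01, -0.02 and 0.33, where that of all probes was -0.04, 0.03 and -0.02. In no comparison did the 5 arrays of a group lie wholly above or below those of the other for any of the 8 receptors, and of all probes 1.62%, 0.641% and 2.04% lay apart in this way at days 2, 5 and 30 and 1.8% for day 30 against day 2. A probe higher in all 5 pairs was found for 2, 1 and 1 of the 8 receptors at days 2, 5 and 30, against 6.17%, 7.24% and 7.41% of all probes. Lower in all 5 pairs were 0 of the 8 receptors on each day, against 8.19%, 5.86% and 10.5% of all probes. For day 30 against day 2, 6.69% of all probes were lower in all 5 pairs. These shares are also the background for the list genes below.

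**Figure D1:**
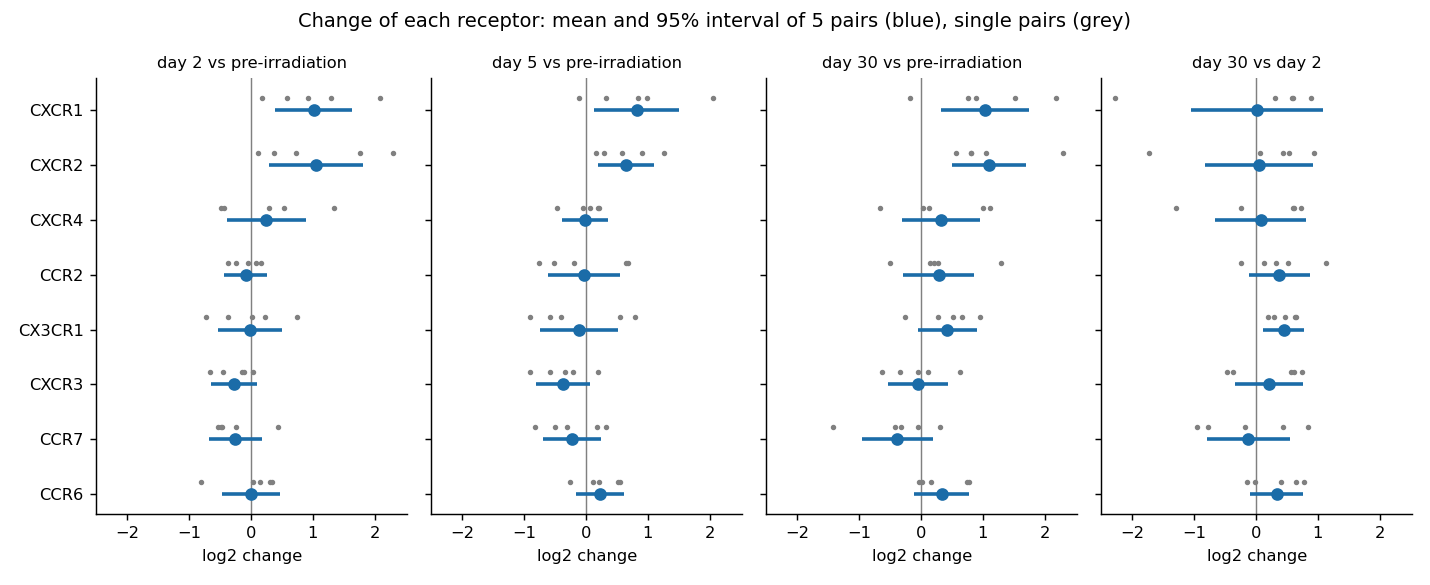
Log2 change of the 8 measured receptors in 4 comparisons, with the mean of 5 pairs as a blue point, its 95% interval from limma as a bar, and the single pairs as grey points. The intervals of CXCR1 and CXCR2 lie above 0 on all 3 days against pre-irradiation, and that of CX3CR1 lies above 0 for day 30 against day 2.

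CXCR1, a receptor of CXCL8 and CXCL6 on neutrophils, stood at 0.86, 0.41, -0.04, -1.40 and 0.77 in replicates 1 to 5 before irradiation, and at 1.78, 0.59, 2.05, -0.11 and 1.35 at day 2. At day 5 it was 1.70, 0.29, 0.29, 0.67 and 1.75, and at day 30 2.38, 1.17, -0.23, 0.78 and 1.65. Replicate 4 was the lowest array before irradiation and replicate 3 was the lowest at day 30, and the groups overlapped on every day. The mean was 0.12 ± 0.92 (SD, n = 5) before irradiation and 1.13 ± 0.89 at day 2, a difference of 1.01 (2.02-fold, standard error 0.27, 95% interval 0.39 to 1.63, limma adjusted p = 0.197), with 5 of 5 pairs higher. At day 5 the difference was 0.82 (standard error 0.30, adjusted p = 0.384), with 4 of 5 pairs higher, and at day 30 it was 1.03 (standard error 0.31, adjusted p = 0.177), again with 4 of 5. The pair of replicate 3 had the greatest change at day 2, 2.09, and the only negative change at day 30, -0.18.

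CXCR2, which binds CXCL8 and also CXCL1, CXCL2, CXCL5 and PPBP, stood at 1.92, 0.74, 0.02, -0.59 and 1.30 before irradiation and at 2.29, 0.86, 2.32, 1.18 and 2.03 at day 2. It was 2.08, 1.03, 0.93, 0.67 and 1.89 at day 5 and 2.73, 1.80, 0.59, 1.71 and 2.10 at day 30. Replicates 1 and 5 were the highest and replicates 3 and 4 the lowest before irradiation, and each later group overlapped the first. The difference from pre-irradiation was 1.06 at day 2 (2.08-fold, standard error 0.33, limma adjusted p = 0.235), 0.64 at day 5 (standard error 0.20, adjusted p = 0.344) and 1.11 at day 30 (2.15-fold, standard error 0.26, 95% interval 0.51 to 1.70, adjusted p = 0.141). All 5 pairs were higher on each day. The pair of replicate 4 gave 2.30 at day 30, and the other 4 pairs lay between 0.56 and 1.05.

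CXCR1 and CXCR2 were the most alike of all pairs among the 8 receptors, with a root mean square difference of 0.485 on the log2 scale over their 15 paired changes and the same sign in 13 of them. CXCR4 and CCR2 followed closely, at 0.498 and also with the same sign in 13 of 15. Slides cut across the replicate numbers, and for CXCR1 and CXCR2 the differences within slides spread more widely than those within pairs. The spread was narrower for CXCR4 at day 2, at 0.04 to 0.43 within slides and -0.48 to 1.34 within pairs. It was also narrower for CCR7 at day 30, at -0.78 to -0.17 against -1.43 to 0.31. CCR2 at day 30 was narrower too, at -0.15 to 0.90 against -0.50 to 1.29. So were CCR2 at day 5, CCR6 at days 2 and 5, CX3CR1 at day 2 and CXCR3 at day 30. With the slide as the block in limma the adjusted p-values of CXCR4 at day 2 and CCR7 at day 30 were 0.531 and 0.463. Within slides the difference of CXCR1 at day 2 ran from -0.97 to 3.18 and was above 0 on 4 of 5 slides, and that of CXCR2 from -0.74 to 2.88, also on 4. At day 30 CXCR1 ran from -0.99 to 3.05 with 4 of 5 slides above 0, and CXCR2 from -0.71 to 2.71 with 3. With the slide in place of the replicate number as the block, neither gene had an unadjusted p under 0.05 at any day (adjusted p = 0.479 for CXCR1 and 0.422 for CXCR2 at day 2, 0.489 and 0.466 at day 30). At day 5 both adjusted p-values were 0.877. Some settings went the other way and called CXCR1 or CXCR2. At day 2 CXCR1 passed without replicate 2 (adjusted p = 0.0981) and on the deposited log2 values (0.0772), and at day 30 CXCR2 passed on those values (0.0584) and with normexp background correction (0.0318). Of all probes, these settings called 588 of 19961 and 327 of 5653 at day 2. At day 30 they called 334 of 5653 and 952 of 19961.

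**Figure D2:**
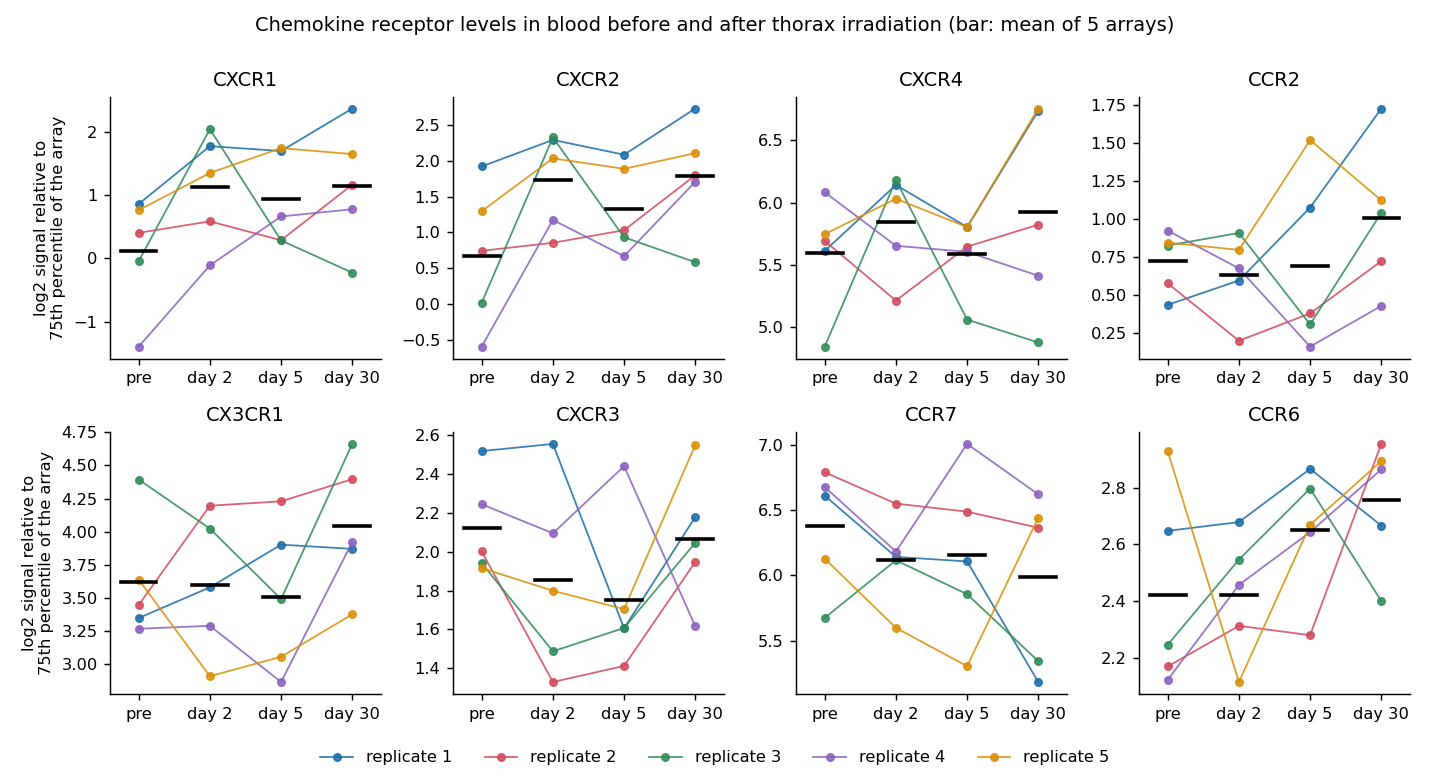
Log2 level of the 8 measured receptors on each array, relative to the 75th percentile of the array, by group, with a line for each replicate number and a black bar for the mean of 5 arrays. The vertical axis differs between panels. CXCR1 and CXCR2 lay higher on most lines after irradiation, the line of replicate 3 peaked at day 2 for both, and the groups overlapped for every gene.

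Neutrophil marker genes had positive changes on the same days as both receptors. Of 12 listed markers 11 were measured, FCGR3B was not analysed here, and all 11 had a positive change at days 2, 5 and 30, with medians of 0.81, 0.46 and 0.73. The summed level of the 11, in multiples of the 75th percentile of the array, ranged 128 to 360 before irradiation, 249 to 768 at day 2, 182 to 599 at day 5 and 217 to 980 at day 30. CSF3R, the receptor of granulocyte colony-stimulating factor, was 1.0 higher at day 2 (adjusted p = 0.148), and at day 5 CEACAM8, an adhesion molecule of neutrophil granules, was 0.96 higher and S100A12, a calgranulin, 1.57 (adjusted p = 0.279 and 0.309). None of the 11 passed the threshold on any day. Pair by pair, the mean change of the 11 markers was 0.99, -0.26, 2.04, 1.0 and -0.29 at day 2 for replicates 1 to 5, and replicate 3 was the highest pair for the markers, for CXCR1 and for CXCR2. In replicate 5 the markers were at -0.29 at day 2 and -0.16 at day 30, where CXCR1 was at 0.59 and 0.89. The change of CXCR1 minus that of the markers averaged 0.32, 0.24 and 0.10 at days 2, 5 and 30. Its SD was 0.37, 0.85 and 0.94 (n = 5 pairs). For CXCR2 the mean was 0.36, 0.06 and 0.17 (SD 0.63, 0.53 and 1.19). At day 30 single pairs ran from -1.14 to 1.05 for CXCR1 and from -1.85 to 1.09 for CXCR2. The part of the markers in the result was not tested.

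**Figure D3:**
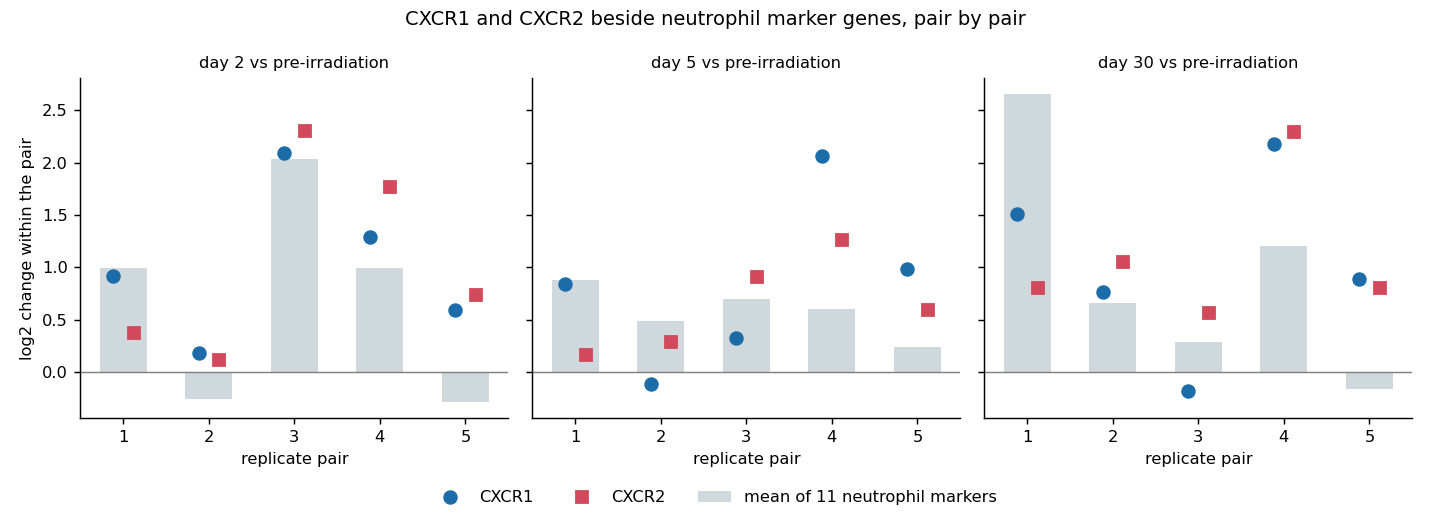
Log2 change of CXCR1 (blue circles) and CXCR2 (red squares) within each replicate pair at days 2, 5 and 30 against pre-irradiation, over grey bars for the mean change of 11 neutrophil marker genes. At day 2 the pair of replicate 3 was highest for the bar and both receptors, while at day 30 the bar was highest in replicate 1 and both receptors in replicate 4.

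CXCR4, the CXCL12 receptor of most leukocytes, was read by a probe with 10 spots per array. Its level was 5.61, 5.69, 4.84, 6.08 and 5.75 before irradiation, 6.14, 5.21, 6.18, 5.65 and 6.03 at day 2, 5.80, 5.65, 5.06, 5.60 and 5.80 at day 5 and 6.74, 5.82, 4.88, 5.41 and 6.75 at day 30. Replicate 3 was the lowest array before irradiation and at days 5 and 30, and the highest at day 2. The difference from pre-irradiation was 0.25 at day 2 (95% interval -0.39 to 0.88), -0.01 at day 5 (-0.38 to 0.36) and 0.32 at day 30 (-0.31 to 0.96), with limma adjusted p-values of 0.689, 0.985 and 0.568. Without replicate 3 the difference at day 2 was -0.02, and with normexp background correction it was -0.25. The SD over the 5 arrays was 0.31 at day 5 and 0.82 at day 30, where replicates 1 and 5 stood at 6.74 and 6.75.

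Of the receptors known on monocytes, CCR2 and CX3CR1 were measured and CCR1 was not. The CCR1 probe was well above background on 0 of 20 arrays, with a processed signal of 3.13 to 10.6, and gives no level for this gene in any group. CCR2, the receptor of CCL2, stood at 0.44, 0.58, 0.83, 0.92 and 0.85 before irradiation, 0.60, 0.20, 0.91, 0.68 and 0.80 at day 2, 1.08, 0.38, 0.31, 0.16 and 1.52 at day 5 and 1.73, 0.72, 1.04, 0.43 and 1.12 at day 30 on its main probe. The day 5 arrays spread from 0.16 to 1.52, on both sides of the pre-irradiation arrays. Its difference from pre-irradiation was -0.09, -0.03 and 0.29 at days 2, 5 and 30 (95% intervals -0.44 to 0.26, -0.62 to 0.55 and -0.28 to 0.86, limma adjusted p at least 0.580). The other CCR2 probe gave -0.46, -0.22 and -0.25, so the probes had opposite signs at day 30. All 9 measured monocyte markers of 12 listed had a positive change on each of the 3 days, with medians of 0.58, 0.37 and 0.53, and 0 passed the threshold. Their summed level ranged 90.8 to 266 before irradiation, 186 to 334 at day 2, 96.7 to 301 at day 5 and 184 to 353 at day 30. CD163, a scavenger receptor, and CSF1R, the receptor of macrophage colony-stimulating factor, were 0.97 and 0.73 higher at day 30 (adjusted p = 0.148 and 0.152). FCGR1A and LYZ were not analysed here and CD36 was not well above background on enough arrays. At day 2 the change of CCR2 was below that of the monocyte markers in 5 of 5 pairs (mean difference -0.68, SD 0.45). It was above them in 2 of 5 pairs at days 5 and 30 each, with mean differences of -0.36 and -0.30 (SD 0.47 and 0.67). The part of the markers was not tested.

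CX3CR1, the receptor of fractalkine, stood at 3.35, 3.44, 4.39, 3.26 and 3.64 before irradiation and 3.58, 4.20, 4.02, 3.29 and 2.91 at day 2. It was 3.90, 4.23, 3.49, 2.86 and 3.05 at day 5 and 3.87, 4.40, 4.66, 3.92 and 3.37 at day 30. Replicate 3 was the highest array before irradiation and replicate 2 at days 2 and 5, and the groups overlapped throughout. The difference from pre-irradiation was -0.02 at day 2, -0.11 at day 5 and 0.43 at day 30 (95% interval -0.05 to 0.90, limma adjusted p = 0.330, 4 of 5 pairs higher). NK cell markers were set beside it. Of 12, 9 were lower at day 2 with a median over the list of -1.33, and 1 was called, KLRB1, a lectin-like receptor, which fell by 1.67 (limma adjusted p = 0.0965, and called in 7 of 17 alternatives). That call was lost without replicate 1, 3, 4 or 5 (adjusted p = 0.228 to 0.428), with the slide as the block (0.299) and without a block (0.265). At day 5 EOMES, a transcription factor of NK and memory T cells, was at -1.13. NCAM1, an adhesion molecule on the list, was at 0.79 at day 30 and was not among the lower genes at day 2, at 0.19. Which macaque cells carry NCAM1 was not tested. The median of the list was -0.70 at day 5 and 0.08 at day 30, with summed levels of 94.9 to 190 before irradiation, 66.7 to 109 at day 2, 67.7 to 144 at day 5 and 155 to 225 at day 30. GNLY, EOMES, KLRF1, PRF1, KLRD1, NKG7 and GZMB, genes of cytotoxic lymphocytes, were between -1.56 and -1.27 at day 2 with an unadjusted p under 0.005 each, and FCGR3A, which monocytes also carry, was at 0.69. The change of CX3CR1 minus that of the NK markers lay between 0.79 and 1.04 in the 5 pairs at day 2. It ran from -0.39 to 1.31 at day 5 and from -0.09 to 0.48 at day 30. Minus that of the monocyte markers it averaged -0.61, -0.43 and -0.16 at days 2, 5 and 30. The part of either list in the level of CX3CR1 was not tested.

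CXCR3 and CCR7, receptors of T cell subsets, had negative mean changes on all 3 days, none past the threshold. CXCR3, the receptor of the interferon-induced chemokines CXCL9, CXCL10 and CXCL11, stood at 2.52, 2.00, 1.94, 2.24 and 1.92 before irradiation, 2.55, 1.33, 1.49, 2.09 and 1.80 at day 2, 1.61, 1.41, 1.61, 2.44 and 1.70 at day 5 and 2.18, 1.95, 2.05, 1.62 and 2.55 at day 30. At day 5, 4 of the 5 arrays lay below every pre-irradiation array, while replicate 4, at 2.44, lay within the pre-irradiation range. The difference was -0.27 at day 2 (95% interval -0.64 to 0.10, limma adjusted p = 0.458), -0.37 at day 5 (-0.80 to 0.06, adjusted p = 0.506) and -0.06 at day 30 (-0.54 to 0.43, adjusted p = 0.914). The other CXCR3 probe gave -0.01, -0.17 and -0.24.

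CCR7, the lymph node homing receptor that binds CCL19 and CCL21, stood at 6.61, 6.79, 5.67, 6.68 and 6.13 before irradiation and 6.14, 6.55, 6.11, 6.18 and 5.60 at day 2. It was 6.11, 6.49, 5.86, 7.01 and 5.30 at day 5 and 5.18, 6.36, 5.34, 6.62 and 6.44 at day 30, where replicates 1 and 3 were the lowest. The difference was -0.26, -0.22 and -0.39 at days 2, 5 and 30, lower in 4, 3 and 4 of 5 pairs (95% intervals -0.69 to 0.17, -0.69 to 0.25 and -0.96 to 0.19, limma adjusted p = 0.531, 0.699 and 0.456). The 15 T cell markers were all measured, and 15, 14 and 15 of them were lower at days 2, 5 and 30, with medians of -0.38, -0.27 and -0.47 and 0 past the threshold. CD8A and CD2 had an unadjusted p under 0.005 at day 2, at -0.86 and -0.65. Their summed level ranged 243 to 360 before irradiation, 177 to 277 at day 2, 146 to 387 at day 5 and 155 to 286 at day 30. Set against the T cell markers, the change of CCR7 differed by a mean of 0.20 at day 2, 0.08 at day 5 and 0.05 at day 30, with SDs of 0.40, 0.29 and 0.28, and replicate 1 was the lowest pair for both at day 30. CXCR3 differed from these markers by 0.19, -0.06 and 0.38 at days 2, 5 and 30, with SDs of 0.51, 0.42 and 0.43. CXCR4 differed from them by 0.71, 0.30 and 0.76 (SD 0.86, 0.53 and 0.97), above them in 4 of 5 pairs on each day. The part of the markers in these values was not tested.

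CCR6, the receptor of CCL20, stood at 2.65, 2.17, 2.25, 2.12 and 2.93 before irradiation, 2.68, 2.31, 2.55, 2.46 and 2.12 at day 2, 2.87, 2.28, 2.80, 2.64 and 2.67 at day 5 and 2.67, 2.95, 2.40, 2.86 and 2.89 at day 30. Replicate 5 was the highest array before irradiation and the lowest at day 2, and in the other 4 pairs CCR6 was higher on each of the 3 days. Its mean difference was -0.00081 at day 2, 0.23 at day 5 and 0.33 at day 30 (95% intervals -0.46 to 0.46, -0.16 to 0.62 and -0.12 to 0.78, limma adjusted p = 0.999, 0.630 and 0.412). Without replicate 5 the value at day 2 was 0.20. Most B cell markers had negative changes, with 10, 10 and 9 of 10 measured lower at days 2, 5 and 30 and medians of -0.50, -0.54 and -0.49, 0 of them past the threshold. MS4A1 and PAX5 of the 12 listed were not well above background on enough arrays. Their summed level ranged 104 to 214 before irradiation, 88.8 to 171 at day 2, 99.0 to 128 at day 5 and 67.6 to 128 at day 30. FCRLA, an Fc receptor-like gene of B cells, was at -0.87 at day 5, and CD72, a B cell coreceptor, at -1.34 at day 30, both lower in 5 of 5 pairs. At day 5 the change of CCR6 was above that of the B cell markers in 5 of 5 pairs, by a mean of 0.79 (SD 0.42). At days 2 and 30 it was above them in 4 of 5 pairs each, with differences of -0.85 to 1.41 and -0.24 to 1.26. The part of the markers in the level of CCR6 was not tested.

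Day 30 was also compared directly with day 2, to ask whether early and late levels differed. None of the 8 receptors passed the threshold, which called 0.0501% of all probes. CX3CR1 alone had an unadjusted p under 0.05, as a higher level, where 5.4% of all probes were higher and 7.44% lower at that limit. Its change in replicates 1 to 5 was 0.29, 0.20, 0.64, 0.63 and 0.47, so every pair was higher at day 30, by a mean of 0.45 (1.36-fold, standard error 0.14, limma adjusted p = 0.363). Of all probes, 7.03% were higher in all 5 pairs. Within slides that difference ran from -0.33 to 1.11, above 0 on 3 of 5 slides (adjusted p = 0.780 with the slide as the block). NK cell markers were higher in 11 of 12 genes, with a median of 1.24, and KLRD1 and KLRB1 rose by 1.43 and 2.29 (adjusted p = 0.0940 each), while the monocyte markers had a median of -0.10. Both calls held in 8 of 17 alternatives and were lost without replicate 1, 3, 4 or 5 (adjusted p = 0.144 to 0.442), with the slide as the block (0.621 for KLRD1 and 0.247 for KLRB1) and without a block (0.319 and 0.141). KLRF1, EOMES, GZMB, GNLY and PRF1 were between 0.91 and 1.61, higher in 5 of 5 pairs. The difference of CX3CR1 was below the mean of the NK markers in 5 of 5 pairs, and their part in its value was not tested. For CXCR1 and CXCR2 the mean difference was 0.02 and 0.05, with 95% intervals of -1.05 to 1.08 and -0.83 to 0.92. In both, the pair of replicate 3 was lower, at -2.28 and -1.74, and the other 4 pairs were higher. CCR2, CCR6, CXCR3, CXCR4 and CCR7 gave 0.37, 0.33, 0.21, 0.08 and -0.13, and the median of the 8 receptors was 0.15 beside 0.0016 for all probes.

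Among 13 other chemokine receptors 9 were measured, and the direction differed between them. CCR8, ACKR1, ACKR2 and ACKR4 were not well above background on enough arrays. CXCR6, a receptor of effector and tissue-homing T and NK cells, was at -1.19 at day 2 and -0.53 at day 5, lower in 5 of 5 pairs each (limma adjusted p = 0.131 and 0.369). From day 2 to day 30 CXCR6 rose by 1.24 (standard error 0.13, adjusted p = 0.0940), the only receptor of the list called in any of the 4 comparisons. The call of CXCR6 held in 9 of 17 alternatives and was lost without replicate 1, 3, 4 or 5 (adjusted p = 0.144 to 0.442) and with the slide as the block (0.208). With normexp background correction, which moved the median of all probes at day 2 from -0.04 to 0.17, CXCR6 was at 0.16 from day 2 to day 30 and at 0.0068 at day 2. At day 2, 9 of 12 NK and 15 of 15 T cell markers were lower as well, and their part in the values of CXCR6 was not tested. CCRL2, a receptor-like protein that presents chemerin, was higher at 1.22, 0.74 and 0.75 on the 3 days (adjusted p = 0.142 at day 2). At day 30 CCR4, a receptor of Th2 and regulatory T cells, was at -0.54 and CCR10 at 0.49 (adjusted p = 0.179 and 0.286), and for day 30 against day 2 XCR1, a dendritic cell receptor, was at -0.50 and CCR4 at -0.35. CXCR5, which guides B cells to follicles, was at -0.50 at day 2 and -0.53 at day 5, beside the B cell markers given above. Over the list the median was -0.15, -0.17, -0.03 and 0.0022 in the 4 comparisons, with 4, 4, 4 and 5 of 9 higher.

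**Figure D4:**
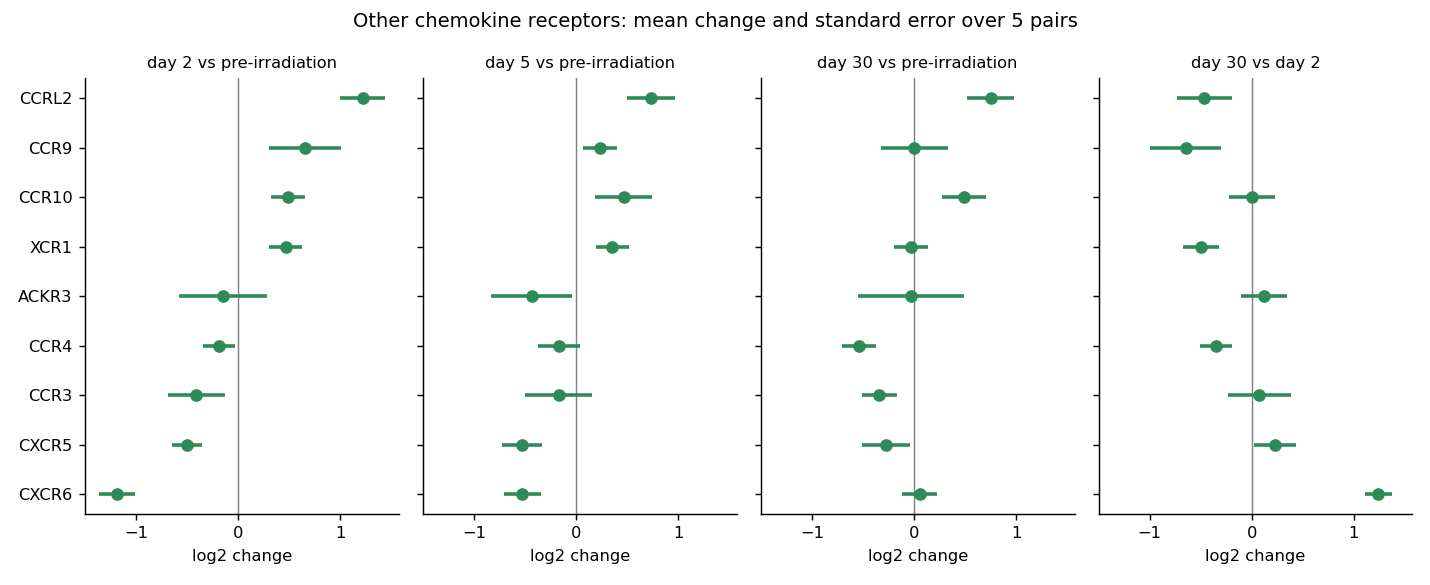
Log2 change of 9 other chemokine receptors in 4 comparisons, as the mean of 5 pairs (points) with its standard error (bars). CXCR6 had the lowest change at day 2 and the highest from day 2 to day 30, and CCRL2 had the highest on each day against pre-irradiation.

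Receptors of other chemoattractants, such as complement fragments, formyl peptides and lipids, were measured for 10 of 11 genes, all but S1PR5, with medians of 0.70, 0.18 and 0.42 at days 2, 5 and 30 and 0 past the threshold. C5AR2, a receptor of complement C5a, was 0.98, 1.03 and 0.78 higher, and CMKLR1, the chemerin receptor, 1.04 at day 2. S1PR1, which lets lymphocytes leave lymph nodes, was lower in 5 of 5 pairs on each day, at -0.60, -0.62 and -0.51. FPR1, the formyl peptide receptor and also a listed neutrophil marker, was at 0.43 at day 5. PTAFR, the receptor of platelet-activating factor, was at -1.85 at day 30, lower in 5 of 5 pairs (adjusted p = 0.126). From day 2 to day 30, 9 of the 10 were lower, among them PTGDR2 at -0.69, C3AR1 at -0.45 and PTAFR at -1.37.

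Of 34 chemokine ligands 14 were measured, CCL4 and XCL2 were not analysed here, and the other 18 had no probe above background on enough arrays, CXCL8 among them. Their median change was 0.09, 0.12 and -0.11, with 0 past the threshold. CXCL2, a ligand of CXCR2, was 1.23 at day 2 and 0.93 at day 5, and PPBP and PF4, chemokines of platelet granules, were 1.55 and 1.47 at day 2, each higher in 5 of 5 pairs (adjusted p = 0.131, 0.138 and 0.138 at day 2). PF4 was 0.61 at day 5. All 8 measured platelet markers, a list that holds PPBP and PF4, were higher at day 2 with a median of 1.46, and the median was -0.09 at day 30. The summed level of the platelet markers ranged 26.5 to 81.6 before irradiation, 82.6 to 317 at day 2, 63.0 to 136 at day 5 and 47.6 to 65.7 at day 30, and their part in the values of PPBP and PF4 was not tested. Among them CLEC1B, a platelet lectin receptor, was 1.40 at day 2 and 1.06 at day 5, and TUBB1, ITGB3, ITGA2B, TREML1 and GP9 were between 0.99 and 1.94 at day 2 and between -1.99 and -1.40 from day 2 to day 30. From day 2 to day 30 PF4, PPBP, CXCL2 and CCL24, an eosinophil chemokine, were at -1.61, -1.46, -1.07 and -0.64, lower in 5 of 5 pairs. XCL1, a chemokine of NK and CD8 T cells, was -0.99 at day 2 and -1.11 at day 5, lower in 5 of 5 pairs, but at 0.34 at day 2 with normexp background correction. At day 30 CCL24, CXCL12, the ligand of CXCR4, and CXCL5 were at -0.49, -0.46 and 0.37.

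All 24 genes of receptor signalling, which covers G protein subunits, kinases, arrestins and their partners downstream of these receptors, were measured, and 20, 16 and 21 of them were higher at days 2, 5 and 30, with medians of 0.20, 0.07 and 0.16 and 0 past the threshold. FGR, a Src family kinase of myeloid cells, was 0.62 higher at day 2, in 5 of 5 pairs (limma adjusted p = 0.190), and 0.66 at day 30. GNB2, a G protein beta subunit, was 0.59 at day 2. PLCB2, a phospholipase that G protein subunits activate, was 0.48 at day 5 and 0.50 at day 30, and GNG2, a gamma subunit, was 0.92, 0.42 and 0.76 at days 2, 5 and 30. The receptor kinase GRK5 was at -0.51 at day 5, lower in 5 of 5 pairs. From day 2 to day 30 GRK3, GNAI3 and GNB2 were at 0.51, 0.34 and -0.48.

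The course of each receptor was then set against all 16847 probes with a value in all 15 pairs and a gene symbol, by the root mean square difference of the 15 paired log2 changes from pre-irradiation. The nearest genes to CXCR1 were CYSTM1 (0.332) and NAIP (0.360), and those to CXCR2 were RABGEF1 (0.337) and PLA2G2A (0.350), where the changes of CXCR1 and CXCR2 themselves had a root mean square of 1.20 and 1.15. CYSTM1 had mean changes of 0.87, 0.73 and 0.85 at days 2, 5 and 30. For CXCR4 they were MYLIP (0.252) and CNOT8 (0.268), for CCR2 AGFG1 (0.260) and FBXO28 (0.270) and for CX3CR1 DES (0.371) and PLCD1 (0.388). For the lymphocyte receptors they were CCDC115 (0.221) and METAP1 (0.229) for CXCR3, TMEM25 (0.204) and NLE1 (0.222) for CCR7 and KRBA2 (0.106) and SHROOM4 (0.111) for CCR6. The 15 changes share the 5 pre-irradiation arrays, and receptors with small changes lie near many genes by this measure, so it serves as a description.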

How the data were processed

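RNA of whole blood, with globin transcripts removed, was measured on 20 1-colour Agilent human arrays, 5 in each of 4 groups. The authors deposited scanner files that hold a background-corrected intensity per spot from Agilent Feature Extraction, of version 10.7 per the labels and 12.0.2.2 per the file headers, and a table of log2 values without a stated scale. Probes with a single spot differed between this table and the log2 of the scanner intensity only by a constant for each array (tolerance 0.001), and 5 of the 8 measured receptors are in it.

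Outlier spots were dropped, the log2 values of a probe's spots were averaged, and arrays were scaled to their 75th percentile by subtraction. Probes well above background on at least 5 of 20 arrays and present in at least 4 of 5 pairs were fitted in limma 3.58.1 (R 4.3.3 with version 1.17.8 of data.table, and Python 3.11.15, pandas 2.3.3 and matplotlib 3.10.9 for tables and figures), separately for each comparison and with the replicate number as a block. Calls needed an FDR (Benjamini-Hochberg) under 10% together with p under 0.005. These are the thresholds of the study's methods, which used them in another test. Intervals are 95% intervals of limma. The fit was tested on simulated data. The number of arrays limits the precision. With the replicate block, p-values set the mean change against the spread of the changes within these 5 pairs. For that spread limma also draws on the other probes.

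The study's methods pair arrays by animal, and the deviations of arrays with the same number correlated with a median of 0.285 over 30 pairs of arrays (range -0.162 to 0.654), against -0.0695 over 120 pairs with different numbers. Each receptor was represented by its passing probe with the highest mean level, and the 2 genes nearest to it over 15 paired changes are named. Of the gene lists, every list is described by counts and medians. Named from them are marker genes with an unadjusted p under 0.005 and, for other receptors, ligands and signalling genes, those and the 3 with the smallest p in each comparison. The receptors and lists were chosen with earlier results of these data known. Alternatives were another scaling, background correction, filter, block, test and source of values, a lower FDR of 5%, and leaving out each replicate. Exon and UTR positions of the probes were not analysed here. Some genes are not reported here, and the list counts leave them out.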

Additional observations from a re-analysis of the deposited data

Results flagged for a closer look

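Among 64 sets of 5 values, the levels of each receptor in each group and its paired changes in each comparison, 5 held a value set apart from the other 4 by more than 0.71 of the range of the set, and chance sets apart about 1 in 20. CXCR3 at day 5 was set apart by replicate 4, whose level of 2.44 stood above the other 4 arrays by 0.716 of the range. CXCR4 at day 5 was set apart by replicate 3, at 5.06 below the others by 0.732 of the range. That array also had the highest share of spots well above background, 67.3%, and its part in the value was not tested. The change of CCR6 at day 2 was set apart by the pair of replicate 5 at -0.81 (0.735 of the range), and without it the mean change was 0.20. The change of CXCR2 at day 30 was set apart by the pair of replicate 4 at 2.30 (0.718), and without it the mean change was 0.81. The change of CXCR1 from day 2 to day 30 was set apart by the pair of replicate 3 at -2.28 (0.813), and without it the mean change was 0.59.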

How the results depend on the processing

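Of 540 recomputed values of the 8 receptors over 4 comparisons, 500 kept their sign and side of the threshold, 8 passed it that had not and 32 changed sign. None of the receptors had passed as reported, so no call could be lost. Another block, filter, test or model of the spread leaves the mean change of a receptor as it was. For these alternatives the sign was therefore fixed in advance. Only another scaling, background correction, source of values, treatment of outlier spots, probe or set of replicates could alter it. CXCR1 and CXCR2 were above pre-irradiation in all 17 alternatives on each day, those with a fixed sign included. Their changes were 0.52 to 1.22, 0.51 to 1.05 and 0.75 to 1.34 for CXCR1 and 0.58 to 1.29, 0.49 to 0.76 and 0.81 to 1.24 for CXCR2 at days 2, 5 and 30.

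The count of receptors called was 0 as reported. At day 2 it was 1 on the deposited log2 values and 0 to 1 with single replicates left out, CXCR1 without replicate 2. Of all probes, 327 of 5653 were called on the deposited values and 588 of 19961 without replicate 2. At day 30 it was 2 with normexp (CXCR1 at adjusted p = 0.0541), 2 on the deposited values (CXCR1 at 0.0840), 1 with probes well above background on all 20 arrays and 1 with an intensity trend in the spread, CXCR2 in both (0.0743 and 0.0846). Of all probes, these settings called 952 of 19961, 334 of 5653, 694 of 15322 and 451 of 19961 at day 30. The cause was not tested.

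Without the replicate block, that is without the pairing, the count of receptors at an unadjusted p under 0.05 was 1, 0, 1 and 0 for days 2, 5 and 30 and for day 30 against day 2, beside 2, 2, 2 and 1 as reported, and with the slide as a block it was 0 in each. With each probe tested on its own it was 1 at days 2, 5 and 30. At day 5 it was 1 with median scaling, 1 with all 20 arrays in a single fit and 1 to 2 with single replicates left out, 1 without replicate 1 or 5. For day 30 against day 2 it was 3 with normexp, 0 on the deposited values, 0 with all 20 arrays in a single fit and 1 to 4 with single replicates left out, 4 without replicate 3 and 2 without replicate 4. The share of all probes at this limit in these settings is not given here, so the counts have no background.

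Some changes turned sign. With median scaling CCR6 and CX3CR1 at day 2 gave 0.0221 and 0.0034, and CXCR3 at day 30 gave 0.0075. The deposited values gave 0.0154 for CX3CR1 at day 2. With normexp, which moved the median of all probes from -0.04 to 0.17 at day 2, from -0.02 to 0.11 at day 30 and from 0.0016 to -0.10 for day 30 against day 2, CXCR4, XCL1 and CXCR6 at day 2 gave -0.25, 0.34 and 0.0068, and CCR7 gave 0.20 for day 30 against day 2. The other probe gave -0.25 for CCR2 at day 30 and -0.23 for CXCR3 for day 30 against day 2. With single replicates left out, values at day 2 ran from -0.0843 to 0.20 for CCR6, -0.21 to 0.16 for CX3CR1 and -0.0238 to 0.43 for CXCR4. At day 5 they ran from -0.21 to 0.15 for CCR2, -0.33 to 0.0881 for CX3CR1 and -0.0690 to 0.10 for CXCR4, and at day 30 from -0.23 to 0.0863 for CXCR3. For day 30 against day 2 they ran from -0.37 to 0.0810 for CCR7, -0.20 to 0.59 for CXCR1, -0.17 to 0.50 for CXCR2 and -0.0848 to 0.42 for CXCR4.

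Over all probes the count called, 12, 0, 0 and 10 as reported, ran from 0 to 588, 0 to 1, 0 to 952 and 0 to 164 across the alternatives. Signal over background limits CCR1 alone among the receptors.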

Other observations

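Erythroid markers, the abundant transcripts of reticulocytes and red cells, were not set against any receptor. All 8 were measured, and their median change was -0.15 at day 2, 0.11 at day 5 and -0.77 at day 30, with 0 past the threshold in limma. At day 30, 8 of 8 were lower than before irradiation, 2 of them at an unadjusted p under 0.05, and the summed level ranged from 1047 to 3273 times the 75th percentile of the array, beside 2089 to 2434 before irradiation.

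Among the other chemokine receptors, CCR3, the eotaxin receptor of eosinophils and basophils, was at -0.41, -0.17 and -0.34 at days 2, 5 and 30, none past the threshold. It was chosen after its values were seen.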
